A study of Mus musculus with 8 samples.

Results

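Endothelial identity genes are genes whose transcripts mark the cells that line blood vessels. A set of 10 was examined, all of them given by name (Pecam1, Cdh5, Kdr, Tie1, Tek, Emcn, Egfl7, Cldn5, Esam and Ptprb), and each symbol matched 1 of the 55487 gene identifiers in the deposited tables. RNA was sequenced from epididymal white adipose tissue, the fat pad beside the epididymis, of 8 male C57BL/6 mice made obese by a high-fat diet (HFD). The 4 WT mice (numbers 2, 3, 4 and 5) were Slc16a1 flox/flox, carrying floxed copies of the gene for the lactate carrier MCT1 without Cre. The 4 AKO mice (numbers 3, 8, 9 and 11) carried the same floxed copies and the AP2-cre transgene, and their genotype is labelled Slc16a1 -/-. Floxed copies and obesity were thus shared by both groups, age is not in the labels, and number 3 stands for a different animal in each group. The promoter in AP2-cre is that of Fabp4, a gene transcribed in fat cells and also in capillary endothelial cells, so the fat cell is not the only cell type of the pad in which this Cre could act. Values are TPM, a transcript abundance corrected for transcript length and scaled to the same total in every library, and a gene's level is the sum of its rows.

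Endothelial cells hold to each other through adherens junctions, in which VE-cadherin (Cdh5) is the cadherin, and through tight junctions that contain claudin-5 (Cldn5). Their growth and quiescence are set by the VEGF receptors, of which Kdr (VEGFR2) carries most of the signal, and by the angiopoietin receptor Tek (Tie2) with its partner Tie1. The phosphatase Ptprb (VE-PTP) acts on Tek and is bound to VE-cadherin. In white fat a dense capillary bed delivers fatty acids to the fat cells, and fat cells are a source of Vegfa, the ligand of Kdr.

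The promoters of endothelial genes commonly carry binding sites for ETS family factors such as Erg and Fli1, whose shared core is GGAA. RefSeq windows of 250 bases before a transcription start (build GRCm38.p6) were at hand for 6 of the 10 members, 8 windows in all, and 4 are shown because they span members with several matches to that core, few and none. The windows of Egfl7 and Tie1 are not printed. Each reads 5′ to 3′ on the strand of its gene, and capitals mark GGAA or its reverse complement TTCC.
Kdr (chr5:75978456-75978705, minus strand): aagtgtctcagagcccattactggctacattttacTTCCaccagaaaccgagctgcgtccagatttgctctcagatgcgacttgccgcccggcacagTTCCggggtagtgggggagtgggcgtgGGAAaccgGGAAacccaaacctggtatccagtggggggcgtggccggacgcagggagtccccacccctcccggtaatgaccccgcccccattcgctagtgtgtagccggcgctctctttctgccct
Tek (chr4:94739039-94739288, plus strand): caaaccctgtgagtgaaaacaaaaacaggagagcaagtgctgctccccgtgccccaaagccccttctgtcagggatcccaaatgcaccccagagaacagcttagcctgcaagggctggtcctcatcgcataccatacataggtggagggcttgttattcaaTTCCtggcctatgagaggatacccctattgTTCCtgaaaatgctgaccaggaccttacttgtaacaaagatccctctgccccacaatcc
Emcn (chr3:137340828-137341077, plus strand): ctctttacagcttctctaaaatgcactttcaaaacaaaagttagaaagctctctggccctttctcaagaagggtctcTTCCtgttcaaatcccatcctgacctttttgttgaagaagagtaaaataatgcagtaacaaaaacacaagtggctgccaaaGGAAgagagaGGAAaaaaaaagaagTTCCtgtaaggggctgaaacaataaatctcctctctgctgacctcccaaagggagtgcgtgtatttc
Cldn5 (chr16:18776597-18776846, plus strand): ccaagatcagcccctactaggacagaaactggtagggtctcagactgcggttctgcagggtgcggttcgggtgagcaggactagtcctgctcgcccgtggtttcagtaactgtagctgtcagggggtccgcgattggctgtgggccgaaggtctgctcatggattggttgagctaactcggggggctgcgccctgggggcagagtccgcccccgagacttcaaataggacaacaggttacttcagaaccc
The core was found 4 times before Kdr, 2 times before Tek, 4 times before Emcn and 0 times before Cldn5. Matches nearest the start lay 118 bases before it in Kdr, 59 in Tek and 67 in Emcn. Over all 32851 windows of this length, 93.4% held at least 1 match on either strand and the median was 3, so a match is no mark of these genes. The longer string CAGGAA, which contains the core, had 2 matches before Tek, 2 before Emcn and 0 before Kdr and Cldn5, and 25.7% of all windows held it. Neither AGATAA, the string of Gata2 and its family, held by 9.99% of windows, nor ACAATG, a SOX string held by 10.7%, had a match in the 8 windows of members. A missing match says only that these letters are not in these 250 bases.

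The tables hold 152298 rows per library, and between 13968 and 14884 genes reached 1 TPM. Mitochondrial transcripts held between 6.69% and 8.99% of TPM. Slc16a1 itself (chromosome 3), summed over its rows, lay between 15.7 and 28.5 TPM in the libraries labelled WT and between 21.5 and 27.1 TPM in those labelled AKO (limma FDR = 0.850). This total gives no check of the genotype, and groups are named here by their labels alone. Of the tissue's defining genes, the fat cell gene Adipoq lay between 1864 and 5170 TPM and Fabp4 between 17642 and 26850 TPM over the 8 mice.

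All 10 members were expressed in every mouse, and their levels fell into steps. Over the 8 mice Cldn5 had the highest mean level, 172 ± 52.2 TPM (SD, n = 8), followed by Cdh5 at 140.2 ± 29.8, Egfl7 at 139.5 ± 27.1 and Pecam1 at 133.9 ± 22.5. Mouse by mouse these 4 could not be ranked, since each neighbouring pair differed by less than the SD of its difference. Esam came next at 89.3 ± 18.2 TPM and stood below Pecam1 in 8 of 8 mice. Kdr (47.4 ± 14.9), Ptprb (44.7 ± 11.03) and Tie1 (40.03 ± 6.75) formed a lower group that could not be ranked within itself. Emcn (31.4 ± 6.49) lay below Tie1, and Tek (23.9 ± 4.07) below Emcn, each in 8 of 8 mice. TPM is corrected for length, and on that basis these levels were set side by side between genes. Other differences in how well each gene is measured were not tested.

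The adhesion and junction genes were high in level, as was the secreted factor Egfl7. Pecam1 (ENSMUSG00000020717, chromosome 11) encodes CD31, an adhesion molecule of endothelial cells that platelets and leukocytes also carry. WT mice 2, 3, 4 and 5 had 165, 105, 168 and 126 TPM of it, and AKO mice 3, 8, 9 and 11 had 124, 138, 117 and 129 TPM. WT mice 2 and 4 were high, WT mouse 3 was lowest, and the AKO mice lay inside the WT range. Cdh5 (ENSMUSG00000031871, chromosome 8), the adherens junction cadherin, was at 178, 101, 178 and 125 TPM in WT and 120, 164, 117 and 139 TPM in AKO, in the same order of mice. The same WT mice were at the top and the bottom, and AKO mouse 8 stood next to the top. Esam (ENSMUSG00000001946, chromosome 9), an immunoglobulin-type adhesion molecule at endothelial tight junctions and on platelets, was at 109.8, 62.4, 108 and 93.5 TPM in WT and 74.2, 107, 73.2 and 86.5 TPM in AKO. WT mouse 3 was again lowest. Cldn5 (ENSMUSG00000041378, chromosome 16) was at 221, 90.1, 192 and 113 TPM in WT and 168, 221, 145 and 225 TPM in AKO. Here WT mice 3 and 5 lay below every AKO mouse, and AKO mice 8 and 11 reached the level of WT mouse 2.

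The receptors and their phosphatase were lower in level and followed the same mice. Kdr (ENSMUSG00000062960, chromosome 5) was at 68.4, 26.8, 61.2 and 34.4 TPM in WT and 39.4, 62.4, 40.4 and 45.9 TPM in AKO. Its highest mouse had 2.55 times the level of its lowest, the widest range of the 10, with Cldn5 close to it at 2.50 times. Tie1 (ENSMUSG00000033191, chromosome 4) was at 45.9, 28.6, 49.2 and 38.2 TPM in WT and 34.6, 44.8, 36.7 and 42.3 TPM in AKO. Tek (ENSMUSG00000006386, chromosome 4) was at 30.1, 19.7, 28.6 and 21.2 TPM in WT and 24.4, 25.2, 18.5 and 23.4 TPM in AKO. Tek was the single member whose lowest mouse was not WT mouse 3 but AKO mouse 9, and its range of 1.62 times was among the narrowest, beside 1.604 times for Pecam1. Ptprb (ENSMUSG00000020154, chromosome 10) was at 56.2, 32.4, 61.6 and 37.8 TPM in WT and 40.8, 53.7, 33.2 and 41.7 TPM in AKO, with AKO mouse 9 close to WT mouse 3 at the bottom.

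The remaining members are a surface mucin and a secreted factor. Emcn (ENSMUSG00000054690, chromosome 3) encodes endomucin, a sialomucin of capillary and venous endothelium. Its level was 38.6, 20.6, 38.2 and 32.4 TPM in WT and 30.1, 37.1, 24.9 and 29.6 TPM in AKO. Egfl7 (ENSMUSG00000026921, chromosome 2), a secreted factor of vessel growth, was at 164, 86.7, 163 and 131 TPM in WT and 148, 162, 117 and 144 TPM in AKO. Both had WT mouse 3 lowest and WT mouse 2 highest. The Egfl7 locus also holds the precursor of the endothelial microRNA miR-126 (Mir126a), inside the gene and on its strand in the GENCODE M21 annotation. Mir126a was listed at 0 in 8 of 8 libraries, which were built from longer RNA and do not measure mature microRNAs.

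**Figure D1:**
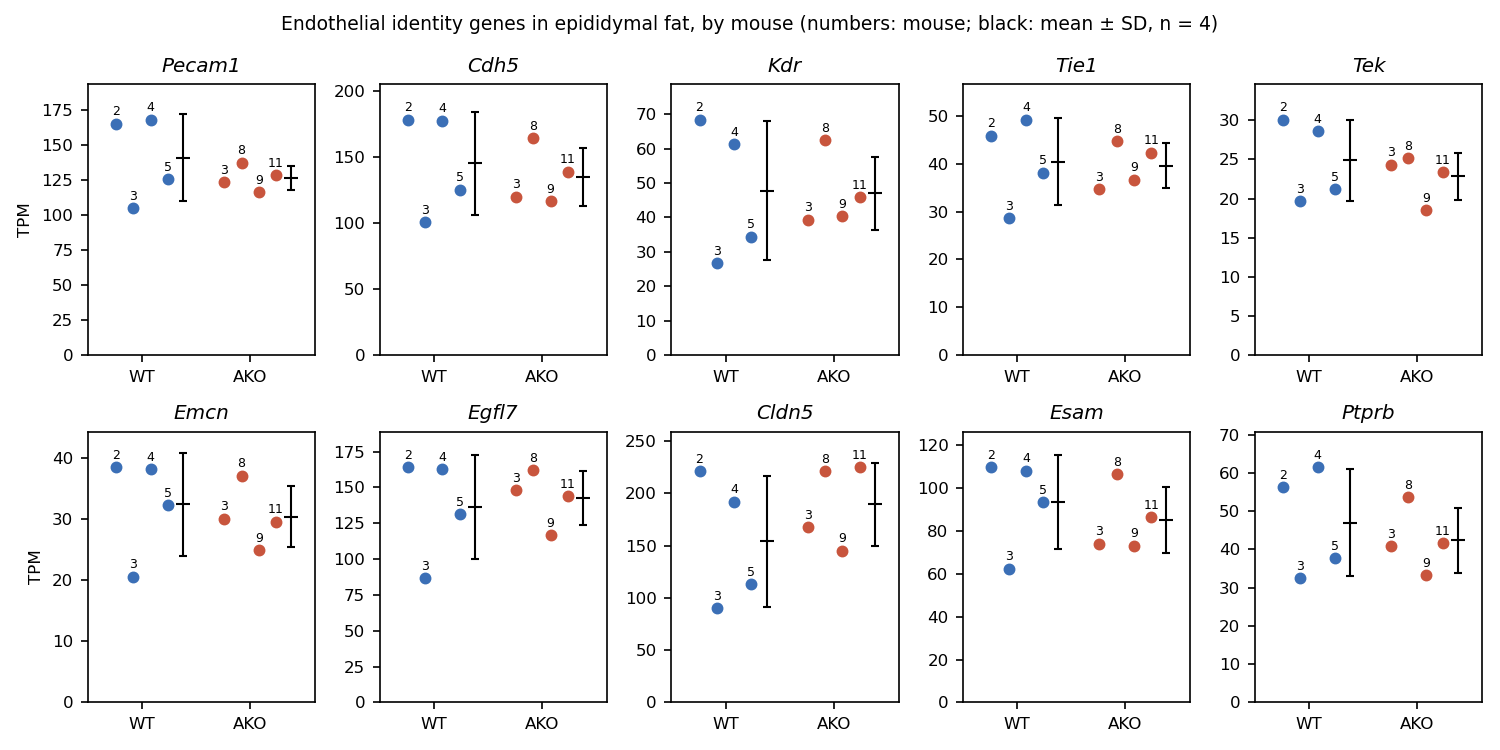
TPM of each of the 10 members (vertical axis, from 0) in the 4 WT mice (blue) and 4 AKO mice (red), with the mouse number above each point and the group mean ± SD in black. WT mouse 3 is the lowest point in 9 of the 10 panels, WT mice 2 and 4 are near the top of most, and the groups overlap in every panel.

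No member separated the genotypes. In limma, a linear model fitted to log2(TPM + 1) over the 14172 genes that reached 1 TPM in 4 mice or more, as did 10 of 10 members, 0 of the 10 members passed a false discovery rate (FDR) of 0.05, a threshold passed by 0.0282% of all genes tested. At an unadjusted p below 0.05 there were also 0 members, where 4.75% of all genes lay. The groups overlapped for 10 of 10 members, and 2.44% of all genes had groups without overlap. Log2 changes were positive for 3 members and negative for 7, with a median of -0.07 beside 0.02 over all genes tested, of which 53.8% were positive. The FDR of single members lay between 0.835 (Cldn5) and 0.993 (Tie1), and exact permutation tests (two-sided, 70 ways to divide 8 mice into groups of 4) gave unadjusted p-values between 0.343 and 0.971. The smallest p these tests can give is 0.0286. Summed over the 10 members the level was 863 ± 243 TPM (SD, n = 4) in WT and 862 ± 127 TPM (SD, n = 4) in AKO.

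The member with the largest difference was Cldn5, at 154 ± 62.6 TPM in WT and 189.9 ± 39.7 TPM in AKO (SD, n = 4 each). Its log2 change was 0.37 (SE 0.29, 95% interval -0.30 to 1.03, limma FDR = 0.835). Without WT mouse 3 the change was 0.14, and without WT mouse 2 it was 0.57. Pecam1 had the lowest value, with 141 ± 31.0 TPM in WT and 127 ± 8.87 TPM in AKO, a log2 change of -0.13 (SE 0.15, 95% interval -0.48 to 0.22, limma FDR = 0.882). The change of Pecam1 ranged from -0.26 without WT mouse 3 to -0.037 without WT mouse 4, and without WT mouse 3 Esam (-0.30) and Ptprb (-0.28) had lower values than Pecam1. Cdh5 had 145 ± 38.9 and 135 ± 21.8 TPM, with an interval from -0.54 to 0.38. Kdr had 47.7 ± 20.2 and 47.0 ± 10.7 TPM, with an interval from -0.63 to 0.74. For Tie1 the means were 40.5 ± 9.15 and 39.6 ± 4.73 TPM (interval -0.39 to 0.37), and for Tek 24.9 ± 5.20 and 22.9 ± 2.99 TPM (interval -0.46 to 0.26). Emcn, Egfl7, Esam and Ptprb had intervals of -0.53 to 0.40, -0.36 to 0.57, -0.56 to 0.33 and -0.63 to 0.39. These intervals are wide, and they leave room for changes of over 0.5 on the log2 scale in at least 1 direction for 7 of the members.

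**Figure D2:**
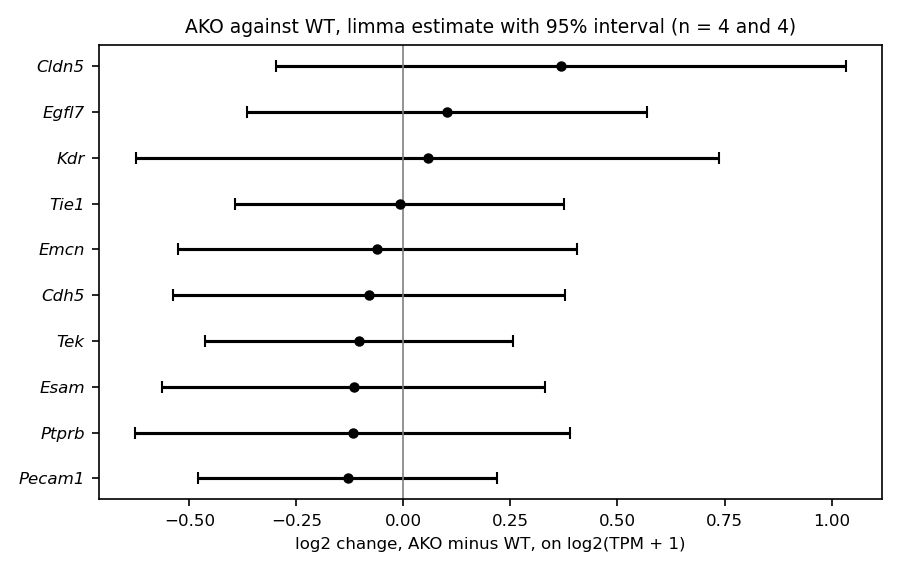
Log2 change of each member, AKO relative to WT (horizontal axis, log2 of TPM + 1), as estimated by limma with its 95% interval, 4 mice per group. Every interval contains 0, and Cldn5 has the highest estimate at 0.37.

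The width of these intervals came from differences among mice of the same genotype. The residual SD within groups, on the log2 scale, was between 0.24 (Pecam1) and 0.50 (Kdr) for the members, and 10 of 10 lay above the median of 0.19 over all genes tested. WT mouse 3 had the lowest summed level, 573 TPM, and WT mice 2 and 4 the highest, 1078 and 1048 TPM. AKO mouse 8 had 1015 TPM, AKO mouse 11 906 TPM, AKO mouse 3 803 TPM, WT mouse 5 753 TPM and AKO mouse 9 722 TPM. Both the highest and the lowest mouse were thus WT. Leaving out WT mouse 3 moved the median log2 change of the members to -0.22, with 1 member positive, and the signs of Kdr (-0.18) and Egfl7 (-0.10) turned. Leaving out WT mouse 2 or WT mouse 4 moved the median to 0.03 in each case, and without AKO mouse 9 it was 0.01. With every mouse left out in turn, 0 members passed the threshold.

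The members moved together from mouse to mouse. Pearson r over the 8 mice on log2(TPM + 1) was positive for 45 of the 45 pairs of members, with a median of 0.889 and a range from 0.697 (Cldn5 and Esam) to 0.966 (Cdh5 and Ptprb). Spearman's rho ranged from 0.524 (Emcn and Cldn5) to 0.976 (Emcn and Esam, tied with other pairs such as Pecam1 and Cdh5), with a median of 0.881. In exact permutation tests over the 40320 orders of the mice, two-sided and adjusted over the 45 pairs by the Benjamini-Hochberg method, 44 pairs passed 0.05 by r and 39 by rho. The largest adjusted p was 0.0569 for r and 0.197 for rho. Without the 2 mice farthest from the median of the first gene of a pair the median r was 0.825 and the range 0.321 (Emcn and Cldn5) to 0.974 (Pecam1 and Emcn). After each gene was centred within its genotype the median r was 0.923, with a range of 0.783 to 0.985. A single component carried 88.9% of the variance of the 10 standardized genes, and the second carried 4.55%. Moving together was not particular to the members. The median pairwise r was 0.968 among 8 lipid-associated macrophage markers and 0.906 among 12 macrophage markers. It was lower than among the members in every other list tested, with 0.732 for adipocyte markers and 0.595 for other endothelial surface and signalling genes. In a piece of bulk tissue, fewer endothelial cells and less RNA per endothelial cell cannot be told apart.

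Among themselves the members were not equally close. Cdh5 followed the mean of the other 9 most closely (r = 0.984 over 8 mice), then Ptprb and Kdr (0.953 each). Cldn5 followed it least (0.821), and Tek was next (0.887). Of the other members with a window, Emcn had 0.948, Tie1 0.944 and Egfl7 0.921. Matches to the ETS core numbered 0 for Cldn5, 2 for Tek, 4 for Kdr, 4 for Emcn, 7 for Tie1 and 5, 3 and 1 in the windows of Egfl7. Windows were at hand for only 6 of the 10 members, and any relation of these counts to r was not tested.

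**Figure D3:**
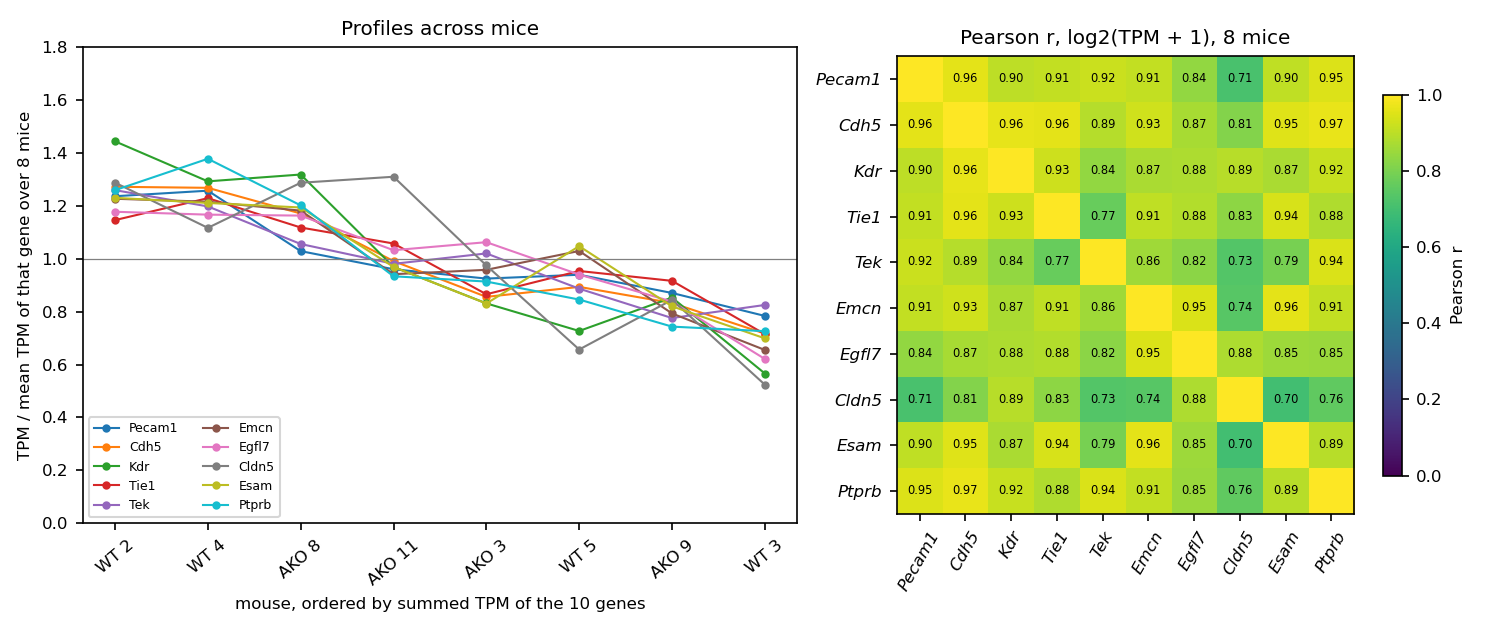
Left, the level of each member divided by its own mean over 8 mice (vertical axis, from 0), with mice ordered by the summed TPM of the 10 genes from WT mouse 2 (1078 TPM) to WT mouse 3 (573 TPM). Right, Pearson r of log2(TPM + 1) over the 8 mice for each pair of members. The lines fall together from left to right, and the Cldn5 line departs most, above the others in AKO mouse 11 and below them in WT mouse 5.

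Each member was also set against the other members within the same mouse. Cldn5 had the largest mean difference between genotypes in this measure, 0.42 on the log2 scale, and Cdh5 was the member whose groups did not overlap. The log2 level of Cldn5 minus the mean of the other 9 was 1.49, 1.02, 1.29 and 0.96 in the WT mice, in the order used above, and 1.53, 1.59, 1.47 and 1.85 in the AKO mice. Only WT mouse 2 reached into the AKO range. For Cdh5 the same quantity was 1.14, 1.20, 1.16 and 1.13 in WT and 0.995, 1.12, 1.12 and 1.08 in AKO, so each WT mouse lay above each AKO mouse, by a mean of 0.08 on the log2 scale. This difference was smaller in size than those of Pecam1 (-0.13), Egfl7 (0.12), Ptprb (-0.12), Esam (-0.12) and Tek (-0.10), whose groups overlapped. The mean of the other 9 set against Cdh5 holds Cldn5, and a higher Cldn5 in AKO by arithmetic lowers the Cdh5 value there. The lack of overlap thus depends on Cldn5 as well as on Cdh5. On the levels given above, leaving Cldn5 out of that mean puts WT mouse 5 below AKO mice 8, 9 and 11. The Cdh5 groups then overlap. Cdh5 was 1 of 10 members without overlap, and 0.777% of the other 14162 genes had no overlap relative to the mean of all 10 members. These shares cannot be read against each other, because members move together with the mean they are set against. Over the 8 mice the SD of Cdh5 was 0.060 relative to the others and 0.305 in its own log2 level. The 10 relative values also depend on each other, since each reference holds the other members. The comparison of members within a mouse was chosen after the values were seen and carries no test.

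**Figure D4:**
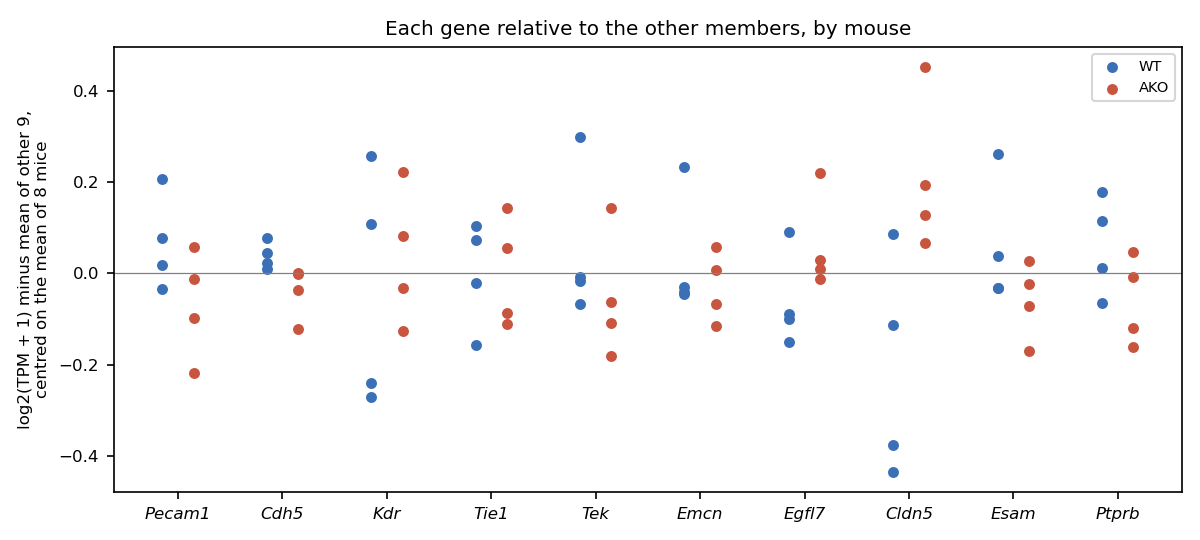
Log2(TPM + 1) of each member minus the mean of the other 9 in the same mouse, centred on its mean over 8 mice (vertical axis), for WT (blue) and AKO (red). Cldn5 is spread most widely and its AKO points lie above 3 of the 4 WT points, while the Cdh5 points lie close together with WT above AKO. The mean set against Cdh5 here holds Cldn5, and without Cldn5 the Cdh5 groups overlap.

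Each gene's level is a sum over rows, and no single row of a member passed the threshold either. The 10 members had 66 rows, of which 62 were above 0 in at least 1 library. Cldn5 had 1 row and Egfl7 had 23. A single row held between 95.7% and 97.5% of the Cdh5 level and between 95.01% and 97.4% of the Kdr level, and in Egfl7 the leading row held between 19.0% and 27.2%. Tested singly in limma over 33323 rows, 0 of the 39 rows of members that passed the filter had an FDR below 0.05, beside 0.021% of all rows, and 0 had an unadjusted p below 0.05, beside 5.56% of all rows. The transcript behind a row was not identified here.

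Other endothelial genes followed the members to different degrees. Each list below was compared with the member score, the mean over the 10 members of their standardized log2 levels in a mouse, and 16 lists were compared in all. Among 20 other endothelial surface and signalling genes, the list mean correlated with the score at r = 0.988 (rho = 0.952) over the 8 mice, with an adjusted exact permutation p of 0.000794 for r and 0.0119 for rho, and r was 0.983 without WT mice 2 and 3. The adhesion gene Icam2 was closest (r = 0.981, rho = 0.976, adjusted permutation p = 0.00211 and 0.00867), at 22.7 to 37.1 TPM. Other genes of this list had lower values: Nos3, the endothelial nitric oxide synthase gene, had r = 0.396 (19.4 to 28.0 TPM), Cd34, which fat progenitors also express, 0.579, and Cd93, also on myeloid cells, -0.384. Arterial markers followed the score closely as well (list r = 0.978, rho = 0.929, adjusted permutation p = 0.000794 and 0.0119, and r = 0.979 without the same 2 mice). Venous markers had a lower value (r = 0.730, rho = 0.810, adjusted permutation p = 0.0722 and 0.0498), and their r was 0.444 without those 2 mice. Lymphatic markers had a value near 0 (r = -0.110, rho = 0.119, adjusted permutation p = 0.787 and 0.793, r = 0.436 without the same mice). Whether these lists differ from each other in r was not tested.

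Factors that bind endothelial promoters were mixed. Their list mean correlated with the score at r = 0.819 (rho = 0.810, adjusted exact permutation p = 0.0334 and 0.0498), and r was 0.605 without WT mice 2 and 3. Of 15 endothelial transcription factors 13 had a positive r with the score, and Erg, the ETS factor of endothelial cells, had r = 0.989 and rho = 0.976 (adjusted exact permutation p = 0.00211 and 0.00867 over 153 genes compared, r = 0.980 without WT mice 2 and 3). The level of Erg was 35.9, 17.3, 36.1 and 23.6 TPM in WT and 24.2, 29.6, 20.2 and 26.2 TPM in AKO, highest in WT mice 2 and 4 and lowest in WT mouse 3 like the members. Fli1, the other ETS factor named above, had r = 0.382 and rho = 0.119 (adjusted exact permutation p = 0.444 and 0.848, r = 0.158 without the same mice), and Elk3, a further ETS factor, had r = 0.052 and rho = 0.024 (adjusted exact permutation p = 0.912 and 0.990). Lyl1, which blood cells also express, had the lowest r of the list, -0.590. Lmo2, Gata2 and Fli1 had the smallest p between genotypes: Lmo2 had 43.8 ± 11.4 TPM in WT and 62.1 ± 15.7 TPM in AKO, Gata2 4.76 ± 0.810 and 6.00 ± 0.767, and Fli1 20.6 ± 2.29 and 23.2 ± 1.34. Each had an FDR of 0.831, and 0 of 15 passed in either direction (0 also at an unadjusted p below 0.05).

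Among the VEGF and angiopoietin pathway genes, 6 of 11 had a positive r with the score, and the list mean had r = 0.722 and rho = 0.690 (adjusted permutation p = 0.0722 and 0.111, r = 0.782 without WT mice 2 and 3). A ligand gene ranked the mice as the members did. Vegfa, the ligand of Kdr, was at 130.4, 56.6, 123 and 68.5 TPM in WT and 76.1, 103, 67.8 and 92.7 TPM in AKO. The order of the 8 mice by Vegfa was that of the member score (rho = 1, r = 0.976, adjusted permutation p = 0.00379 and 0.0019 over the 153 genes, r = 0.973 without WT mice 2 and 3). Within genotypes r was 0.977. Vegfa was singled out after its values were seen. The same order of mice was found for Sema3g of the arterial list (rho = 1, r = 0.967) and for Chst1, described below (rho = 1, r = 0.990), so it was not particular to Vegfa. The decoy and signalling receptor gene Flt1 (VEGFR1), itself endothelial, had r = 0.963 (rho = 0.952, adjusted permutation p = 0.00211 and 0.0125) at 24.3 to 42.5 TPM. The angiopoietins had negative values: Angpt1, the activating ligand of Tek made by mural cells, had 1.01 to 2.79 TPM and r = -0.140, and Angpt2, the context-dependent antagonist, 7.57 to 16.0 TPM and r = -0.549. Of 12 VEGF and angiopoietin pathway genes 11 were tested and 0 passed an FDR of 0.05 in limma (0 at an unadjusted p below 0.05). Vegfb had 109.9 ± 30.5 TPM in WT and 79.6 ± 16.7 TPM in AKO, Vegfd 28.3 ± 5.68 and 23.2 ± 1.94, and Nrp1 83.5 ± 6.96 and 91.5 ± 4.32.

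The list mean of fatty acid handling genes in capillaries followed the members too (11 genes, 10 with a positive r and a median of 0.673, list r = 0.951, rho = 0.905, adjusted permutation p = 0.00278 and 0.0146, r = 0.902 without WT mice 2 and 3). Gpihbp1, the capillary anchor of lipoprotein lipase, was closest at r = 0.949 (rho = 0.833, adjusted permutation p = 0.00826 and 0.0547), with 521, 221, 449 and 311 TPM in WT and 286, 521, 311 and 396 TPM in AKO. The lowest were Fabp5 at r = -0.355 (rho = -0.143, adjusted permutation p = 0.472 and 0.816), a fatty acid binding protein gene that macrophages also express, and the fatty acid receptor gene Cd36 at r = 0.143 (adjusted permutation p = 0.791 for r), with Cav2 at 0.512 and Cav1 at 0.522 (adjusted permutation p = 0.279 and 0.268). Fabp4, whose promoter drives the Cre, had r = 0.878 and rho = 0.905 with the score (adjusted permutation p = 0.0266 and 0.0233, r = 0.808 without the same mice). Fabp4 averaged 21630 ± 4459 TPM in WT and 22237 ± 3682 TPM in AKO (limma FDR = 0.967). Fat cells also make Fabp4, and the share of each cell type was not measured. The genes of this list with the smallest p were Cav1 (2307 ± 423 and 1852 ± 174 TPM), the capillary transcription factor Tcf15 (23.5 ± 8.14 and 34.2 ± 8.48 TPM) and Rgcc (647 ± 137 and 519 ± 90.7 TPM), each with an FDR of 0.831.

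In the other vascular lists 0 genes passed the threshold in limma in either direction. Plvap, the diaphragm protein of fenestrated and venous endothelium, had the smallest p of any endothelial gene examined. It was at 76.1, 63.0, 66.5 and 64.3 TPM in WT and 59.4, 46.0, 44.7 and 53.0 TPM in AKO, so each AKO mouse lay below each WT mouse. Groups without overlap were found for 2.44% of all genes tested. Its log2 change was -0.41 (SE 0.11, unadjusted p in limma across all genes 0.00471, FDR = 0.831), and its r with the member score was 0.236. Of the 20 genes of its list 9 were positive and 11 negative, with a median of -0.02. Plvap was the 1 of 20 with an unadjusted limma p below 0.05, a share close to the 4.75% of all genes tested. Medians were 0.09 for transcription factors, -0.09 for the VEGF and angiopoietin genes, 0.05 for capillary fatty acid handling, -0.05 for arterial markers, -0.01 for venous markers and -0.02 for pericyte and smooth muscle markers, beside 0.02 over all genes. The lymphatic list had a median of -0.31 over 5 tested genes, with Lyve1, which resident macrophages also express, at 30.6 ± 5.33 and 20.4 ± 6.89 TPM (unadjusted limma p 0.0333, FDR = 0.831). Junction partners that other cells share (10 tested, 5 positive and 5 negative) correlated with the score at r = 0.892 (rho = 0.929, adjusted permutation p = 0.0155 and 0.0119), with the plakoglobin gene Jup at 119 ± 28.3 and 105 ± 18.1 TPM.

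Of the markers of mural cells, which wrap the vessels, 8 of 11 had a positive r with the members. The mean of these pericyte and smooth muscle markers, 11 of 11 tested, correlated with the member score at r = 0.852 (rho = 0.905, adjusted permutation p = 0.0275 and 0.0146, r = 0.949 without WT mice 2 and 3). The other 3 went the opposite way: Cspg4, the pericyte proteoglycan gene NG2, had r = -0.816 (rho = -0.762, adjusted permutation p = 0.0472 and 0.0987, r = -0.580 without the same mice), Pdgfrb, which fibroblasts also express, -0.462, and Des -0.428 (adjusted permutation p = 0.343 and 0.384). Their summed level, all 11 included, was 417 to 600 TPM in WT and 366 to 541 TPM in AKO. Adipocyte markers, 12 of 12 tested, had r = 0.759 and rho = 0.548 (adjusted permutation p = 0.0679 and 0.228), with sums of 12109 to 22198 TPM in WT and 11767 to 16740 TPM in AKO. Log2 changes between genotypes were negative for 11 of the 12, with a median of -0.26, while 53.8% of all genes tested were positive. These markers moved together (median pairwise r = 0.732), so they are not separate observations. Of the 12, 10 had a positive r, and Adipoq, the adiponectin gene, had r = 0.961 and rho = 0.952 (adjusted permutation p = 0.00409 and 0.0125). It was at 4035, 1864, 5170 and 2753 TPM in WT and 2551, 3893, 2067 and 3393 TPM in AKO, again lowest in WT mouse 3. Adipoq was singled out after its values were seen, and Lep, the leptin gene, had r = -0.639 in the same list. The part of fat cell content in the level of the endothelial genes was not tested.

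Most macrophage markers, and the collagen genes Col1a1 and Col3a1, had negative correlations with the members. Macrophage markers, 12 of 12 tested, had r = -0.663 and rho = -0.762 with the member score (adjusted permutation p = 0.0992 and 0.0653, r = -0.732 without WT mice 2 and 3), with 2 of the 12 positive. Their sums were 2319 to 5376 TPM in WT and 3708 to 6508 TPM in AKO, and 11 of 12 log2 changes were positive, with a median of 0.41. Lipid-associated macrophage markers, 8 of 8 tested, had r = -0.652 and rho = -0.595 (adjusted permutation p = 0.0992 and 0.192), with sums of 900 to 6270 TPM in WT and 3691 to 7482 TPM in AKO. The log2 change was positive for 8 of 8, its median was 1.21, and 3 had an unadjusted p below 0.05 in limma. Over all genes tested 53.8% were positive and 4.75% had such a p. Genes of a list moved together (median pairwise r = 0.968 for lipid-associated and 0.906 for macrophage markers), so they are not separate observations. WT mouse 3 and AKO mouse 9, lowest in the members, had 6270 and 7482 TPM of the lipid-associated markers, and AKO mouse 3 had 6298 TPM. Csf1r, the macrophage growth factor receptor, had r = -0.853 and rho = -0.905 (adjusted permutation p = 0.0281 and 0.0233). Col1a1 and Col3a1, collagen genes in the fibroblast list, had r = -0.893 (rho = -0.952, adjusted permutation p = 0.0180 and 0.0125) and r = -0.895 (rho = -0.905, adjusted permutation p = 0.0183 and 0.0233), while the whole list of 8 had -0.290 (rho = -0.262, adjusted permutation p = 0.594 and 0.613). In that list 3 of the 8 had a positive r, Pi16 (0.602), Dpp4 (0.465) and Ly6a (0.613), with adjusted permutation p between 0.188 and 0.337. The fibroblast list had 8 of 8 positive log2 changes, with a median of 0.32 and sums of 1601 to 2675 TPM in WT and 1985 to 2846 TPM in AKO. No gene of the adipocyte, macrophage or fibroblast lists passed an FDR of 0.05 in limma (5 in all had an unadjusted p below 0.05). In the platelet list 3 of 8 markers were tested, and their mean had r = -0.820 and rho = -0.786 with the score (adjusted permutation p = 0.0334 and 0.0559, r = -0.943 without WT mice 2 and 3). Pf4, which macrophages also make, held most of its sum (91.2 to 199.6 TPM, r = -0.844, rho = -0.810, adjusted permutation p = 0.0308 and 0.0680), and Itga2b, a defining platelet gene, lay between 0.630 and 2.79 TPM. The third, Ppbp, went the other way at 1.02 to 2.91 TPM (r = 0.423, adjusted permutation p = 0.393). These 3 did not move together, with a median pairwise r of -0.744. Epididymal epithelium markers reached a summed 0.230 to 8.94 TPM, mesothelial markers 17.0 to 70.9 TPM and T and B cell markers 9.64 to 23.2 TPM. The part of any of these in the endothelial levels was not tested.

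**Figure D5:**
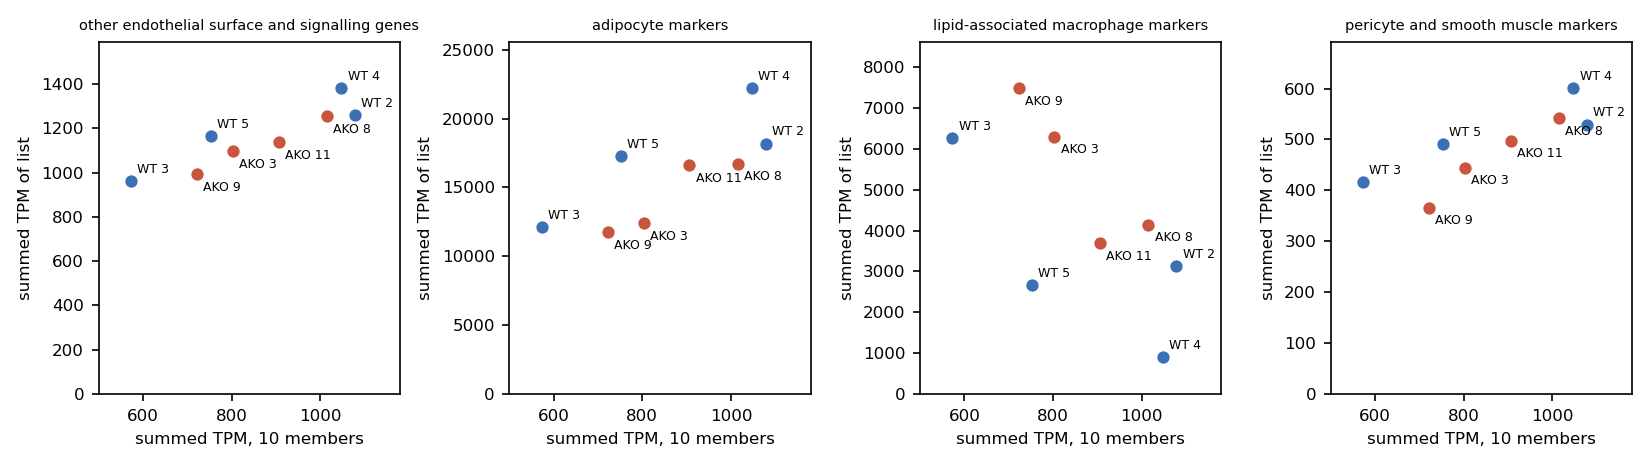
Summed TPM of 4 lists (vertical axes, from 0) against the summed TPM of the 10 members (horizontal axis) in each mouse, WT in blue and AKO in red. Other endothelial genes and mural markers rise with the members, adipocyte markers do so more loosely, and lipid-associated macrophage markers are highest in AKO mouse 9, AKO mouse 3 and WT mouse 3 and lowest in WT mouse 4.

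Of the 153 genes compared singly with the score, 48 with a positive r and 6 with a negative r had an adjusted exact permutation p below 0.05. These genes are those of the lists, chosen with earlier results known, and Slc16a1. The share of all genes that would pass the same p was not computed, so the counts describe the lists only. Among genes named above with a weak or opposite r, the adjusted p of r was 0.169 (Lep), 0.200 (Lyl1), 0.210 (Cd34), 0.221 (Lmo2), 0.233 (Angpt2), 0.253 (Vegfd), 0.420 (Nos3), 0.429 (Cd93), 0.636 (Plvap), 0.718 (Nrp1), 0.791 (Angpt1) and 0.854 (Lyve1). That of rho lay between 0.251 (Lep) and 0.966 (Lyve1) for these genes.

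Over the whole table, 10220 other genes with a mean of at least 5 TPM were compared with the member score, and 2.54% of them had r of at least 0.9 over the 8 mice, while 3.22% had r of -0.9 or lower. The median r was -0.229. The 8 genes most like the members were Chst1 (r = 0.990), Erg (0.989), Mtg2 (0.987), Phldb1 (0.987), Efna1 (0.987), Sh3bp5 (0.985), Lims2 (0.984) and Ablim3 (0.982). Chst1, a keratan sulfate sulfotransferase gene, was at 120.3, 37.4, 115 and 59.6 TPM in WT and 63.2, 93.6, 49.4 and 65.4 TPM in AKO. Efna1 encodes ephrin-A1, Mtg2 a mitochondrial ribosome-associated GTPase, and Ablim3 an actin-binding LIM protein. Each of the 8 had its lowest level in WT mouse 3, and their FDR values between genotypes lay between 0.927 and 0.984.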

How the data were processed

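RNA was sequenced from 8 fat pads. The deposited values are TPM, made by the authors and summing to 1000000 per library within rounding. Per the submitters' processing notes, HISAT2, DESeq2 and the mm9 build were used, in roles and versions not stated there. Which program made the TPM, on which annotation, is not stated. TPM holds no depth, so single values carry no counting error here. Rows were summed per gene, 401 rows without a gene identifier (0.605% to 0.943% of TPM) were left out, and 55141 of 55487 identifiers had a symbol. Limma (version 3.58.1, R 4.3.3) with a mean-variance trend was fitted to log2(TPM + 1) for genes that reached 1 TPM in 4 or more mice, adjusted by the Benjamini-Hochberg method over all genes, and was tested on simulated data. This scale understates changes of low genes. Permutation tests were two-sided and exact. The labels describe separate mice.

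Members and lists were chosen with earlier results of these data known. Genes named are all members, up to 3 per list with the smallest p, the 8 most like the member score (leaving out predicted genes) and Slc16a1, and others are named as lowest, highest or textbook members of a list, after their values were seen. Coordinates are given only for RefSeq windows (GRCm38.p6), not the build named for the files, and chromosomes are from GENCODE M21. Alternatives were another pseudocount, no filter, median-ratio scaling, each gene's highest row, totals without mitochondrial genes and leaving out each mouse. The exact permutation test and, chosen after seeing the data, single rows were further alternatives.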

Additional observations from a re-analysis of the deposited data

Results flagged for a closer look

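Of 118 groups of 4 mice examined, for the members, their sum and the genes named from lists, 6 had a mouse far from the other 3, and chance gives about 1 in 20. None was a member. The gap to the nearest mouse, as a share of the group's range, was 0.838 for Nrp1 (AKO mouse 11 low, 85.1 TPM, next 92.8), 0.929 for Cgnl1 (AKO mouse 11 high, 48.5 TPM, next 41.4), 0.870 for Jup (AKO mouse 8 high, 131.9 TPM, next 97.9), 0.911 for Tcf15 (WT mouse 3 low, 11.3 TPM, next 26.6), 0.898 for Lum (WT mouse 3 high, 175 TPM, next 95.6) and 0.852 for Ppbp (WT mouse 4 high, 2.91 TPM, next 1.30).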

How the results depend on the processing

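Of 140 values of single members under alternatives, 126 kept their direction and none crossed the threshold, the lowest FDR being 0.377 (Pecam1 without WT mouse 3). The other 14 turned direction, all with 1 mouse left out. Values with no filter and of the exact permutation test hold the main log2 change by construction, so these could not turn. With each mouse left out in turn, log2 changes ranged from -0.24 to 0.031 for Cdh5, -0.18 to 0.26 for Kdr, -0.16 to 0.093 for Tie1, -0.26 to 0.033 for Emcn, -0.10 to 0.21 for Egfl7, -0.28 to 0.025 for Ptprb, -0.26 to -0.037 for Pecam1, -0.20 to -0.0085 for Tek, -0.30 to -0.028 for Esam, 0.14 to 0.57 for Cldn5, and -0.22 to 0.03 for the median of the members. The cause was not tested. Over all genes, 3 were higher and 1 lower in AKO at an FDR of 0.05, 5 were higher with a pseudocount of 0.1, and with each mouse left out 1 to 3 were higher and 0 to 2 lower. The median r among members was 0.812 with the highest row per gene, against 0.889, and 0.868 to 0.914 with each mouse left out. Median-ratio scaling kept the sign of every member. No paired analysis was possible because the groups share only mouse number 3, on different animals. Depth is unknown in TPM, and 4 mice per group limit the precision.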
